A study of Mus musculus with 53 samples.

Results

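Among the 13 striatal RNA sequencing libraries of this SCA3 mouse study, 4 held Tcf7l2 at more than 20 CPM (count divided by the library total, times 1e6) and 9 held it below. Tcf7l2 encodes a transcription factor that acts with beta-catenin in Wnt signalling and is kept on in adult thalamic neurons, whereas adult striatal projection neurons hold little of it. The grouping thus asks which striatal dissections carried transcripts of neighbouring tissue. The groups were set by the measured Tcf7l2 level itself, so the differences between them are descriptions without a test, and Tcf7l2 is left out of the results. The 13 libraries were part of 53 libraries from brainstem, cerebellum, cortex and striatum, and 12371 genes other than Tcf7l2 were measured.

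All mice were untreated males aged 74 to 77 weeks. The 8 wild-type striatal libraries came from C57BL/6 mice and the 5 SCA3 libraries from MJD84.2 mice, which carry as a transgene the human ATXN3 gene, with a lengthened CAG repeat and its own regulatory sequence. The high group held 3 wild-type libraries and 1 SCA3 library, and the low group held 5 wild-type libraries and 4 SCA3 libraries. Each library came from a piece of dissected tissue of 1 mouse and is named here by genotype and mouse number. The Atxn3 row, in which reads of the human transgene may be counted, lay at 40.1 to 53.7 CPM in the wild-type striatal libraries and at 54.3 to 64.8 CPM in the SCA3 libraries. The ranges did not overlap but lay close together, so this row is a weak check of the genotype labels.

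The thalamus lies medial and caudal to the striatum and relays sensory and motor signals to the cortex. Its relay neurons release glutamate, which they load into vesicles with the transporter encoded by Slc17a6, and they fire in bursts through T-type calcium channels. The striatum consists mostly of GABA-releasing projection neurons that carry dopamine receptors. In bulk tissue, fewer cells of a type and less RNA per cell cannot be told apart.

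In the high group Tcf7l2 measured 106 CPM in WT 7267058, 116 CPM in WT 7267059, 34.1 CPM in WT 9083373 and 32.6 CPM in SCA3 9082853. The low libraries lay between 5.84 and 9.06 CPM. The library just inside the limit was SCA3 9082853 and the one just outside was SCA3 7267056. From here on, CPM values are scaled by TMM factors, which adjust for differences in library composition.

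The properties of the libraries other than their transcripts did not separate the groups. The total count was 57.4 M ± 12.9 (M, counts in units of 1e6; SD, n = 4) in the high group and 59.7 M ± 10.6 (SD, n = 9) in the low group. The RNA integrity number (RIN) was 7.30 ± 0.787 (SD, n = 4) and 7.51 ± 1.06 (SD, n = 9), respectively. Over RIN, total count, age and bodyweight, 4 exact two-sided permutation tests over 715 splits gave adjusted p-values of 0.93, and genotype was divided over the groups with a two-sided Fisher's exact p of 1. The mouse numbers fall into 3 series by their first 4 digits. The series of WT 7267058 held 2 high and 3 low libraries, that of WT 9083373 held 1 high and 5 low libraries, and that of SCA3 9082853 held 1 of each.

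A gene was counted as standing apart when its log2 difference, high minus low with genotype as covariate, was at least 1 in size and the CPM values of the groups did not overlap. By this measure 59 genes stood higher, 0.477% of all genes, and 14 stood lower, 0.113%. These shares come from the contrast that set the groups, and nothing is read from them. Without a limit on size, 356 genes (2.88%) lay above and 415 (3.35%) below without overlap. The median log2 difference over all genes was 0.006, with 6320 genes above 0. The count of 59 was 112 without WT 9083373 and 105 without SCA3 9082853. The count of 14 was 5 without WT 7267059, 46 without WT 7267055, 45 without WT 9083373 and 110 without SCA3 9082853. Leaving out a library can only ease the condition of no overlap, so rises in these counts are in part built into the measure. The fall to 5 shows that the count of genes that stood lower relied on WT 7267059.

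Slc17a6, the vesicular glutamate transporter of thalamic and other subcortical neurons, had the largest difference among the genes standing apart. It measured 315 CPM in WT 7267058, 291 CPM in WT 7267059, 113 CPM in WT 9083373 and 71.3 CPM in SCA3 9082853. In the low libraries it ranged from 1.94 to 34.0 CPM with a median of 6.37. The low libraries were not uniform, since WT 9083372 (34.0 CPM) and WT 7267055 (29.9 CPM) lay above the other low libraries, the next of which, WT 9083375, measured 8.55 CPM. The log2 difference was 3.94 ± 0.596 (SE, n = 4 and 9). In wild-type brainstem the same gene averaged 347 CPM, and in wild-type cortex 57.9 CPM. Slc17a6 spans chromosome 7 from 51621830 to 51671126 (GRCm38).

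Rgs16, a regulator that shortens signalling by G proteins, followed among the relay markers with 74.4 CPM in WT 7267058, 146 CPM in WT 7267059, 18.6 CPM in WT 9083373 and 15.3 CPM in SCA3 9082853. The low libraries held 3.59 to 8.24 CPM, which left a gap between the groups, and the log2 difference was 3.22 ± 0.465 (SE). Rgs16 lies on chromosome 1 from 153740353 to 153745468. The promoters of Slc17a6 and Rgs16 are shown because these are the relay markers that differed most between the groups. Each window runs from 250 bases before to 50 bases after the first start listed by RefSeq on GRCm38.p6, plus strand, at chr7:51621580-51621879 and chr1:153740103-153740402.
Slc17a6: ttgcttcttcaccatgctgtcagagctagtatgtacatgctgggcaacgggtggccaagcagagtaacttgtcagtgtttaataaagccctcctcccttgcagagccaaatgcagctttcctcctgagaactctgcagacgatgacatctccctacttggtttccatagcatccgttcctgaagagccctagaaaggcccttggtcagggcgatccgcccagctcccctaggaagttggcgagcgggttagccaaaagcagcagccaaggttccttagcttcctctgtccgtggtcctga
Rgs16: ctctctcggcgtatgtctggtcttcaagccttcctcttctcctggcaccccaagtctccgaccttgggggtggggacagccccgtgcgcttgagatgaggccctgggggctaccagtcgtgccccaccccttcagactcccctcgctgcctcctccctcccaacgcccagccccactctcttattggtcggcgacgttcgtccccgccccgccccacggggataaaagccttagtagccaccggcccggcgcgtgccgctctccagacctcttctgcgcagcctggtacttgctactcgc
A search of both strands for the TCF/LEF core letters CTTTG followed by AA, AT, TA or TT found no match in either window, so no letter is in capitals. Of 32851 mouse promoter windows of this length, 16.9% held at least 1 match. Of the 24 windows of 16 measured relay markers 12.5% did, and of the 59 windows found for 44 of the genes that stood higher 18.6%. A match or its absence describes these letters only.

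Of 23 thalamic relay neuron markers 18 were measured, and Gbx2, Tnnt1, Shox2, Vipr2 and Slitrk6 were not, since the table holds only genes above a mean of 4 CPM over all libraries. Each of the 18 had a positive log2 difference, with a median of 1.96 and a range of 0.78 to 3.94. The median was 0.65 within the number series of WT 9083373 and 2.66 with a Tcf7l2 limit of 40 CPM, which leaves 2 high libraries. Slc17a6, Rgs16, Patj (listed as Inadl), Ntng1 and Amotl1 stood apart, and the other 13 overlapped between the groups.

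**Figure D1:**
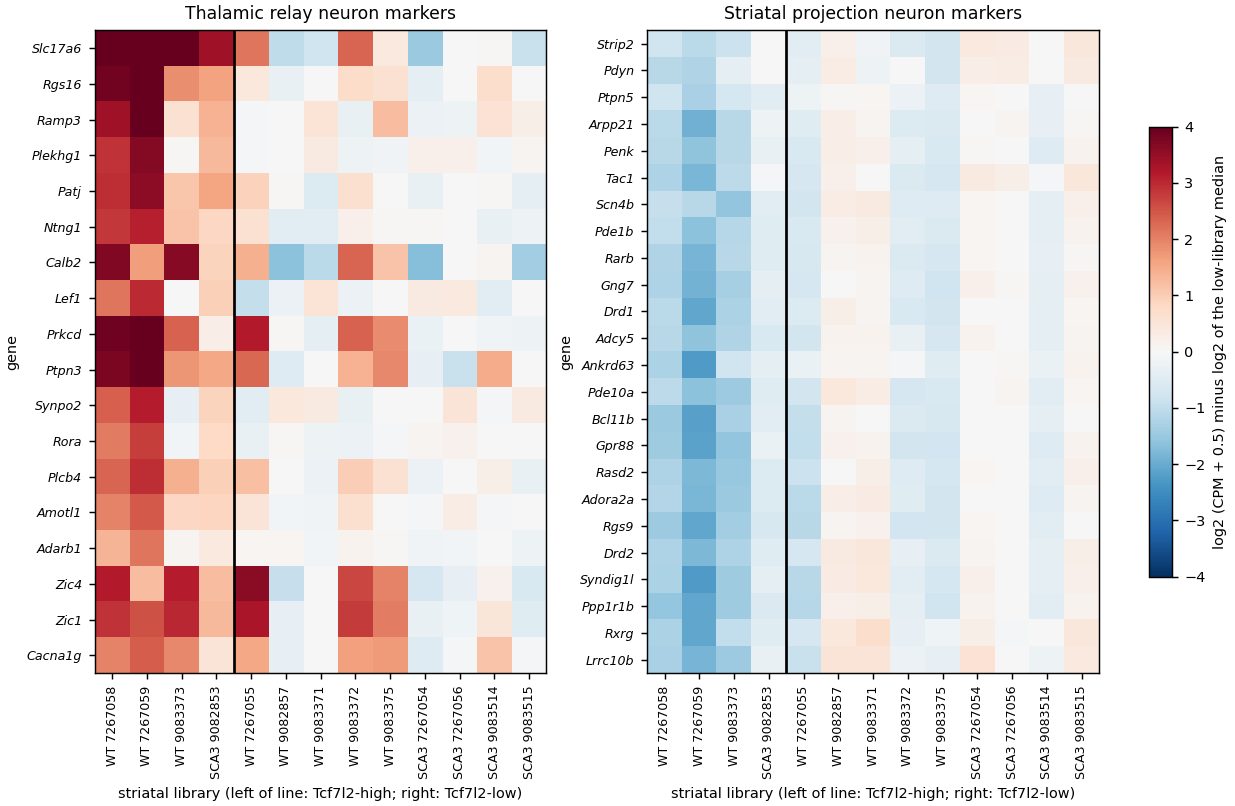
Level of each measured thalamic relay marker (left) and striatal projection neuron marker (right) in the 13 striatal libraries, as log2 (CPM + 0.5) minus that of the median low library, with colours clipped at 4 in either direction. WT 7267058 and WT 7267059 are high for nearly the whole relay list, WT 9083373 is near 0 for Plekhg1, Lef1, Synpo2 and Rora, and the low libraries WT 7267055, WT 9083372 and WT 9083375 are raised for Zic1, Zic4 and Prkcd.

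The 4 high libraries did not carry the same relay profile. WT 7267058 exceeded every low library for 16 of the 18 markers and WT 7267059 for 15, with medians of 2.89 and 3.04 on the log2 scale over the low median. SCA3 9082853 did so for 11 markers with a median of 0.95, and WT 9083373 for 8 with a median of 1.29. Over all genes, the share above every low library was 22.7% in WT 7267058, 29.4% in WT 7267059, 17.7% in SCA3 9082853 and 16.1% in WT 9083373. Among the 59 genes that stood higher, the top value was that of WT 7267059 for 47 genes. The lowest of the 4 high values was that of WT 9083373 for 34 genes and that of SCA3 9082853 for 22.

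Plekhg1, a further marker of the relay list, measured 214 CPM in WT 7267058, 369 CPM in WT 7267059 and 70.7 CPM in SCA3 9082853, but 29.8 CPM in WT 9083373. The low libraries ranged from 24.6 to 36.4 CPM, so WT 9083373 lay among them. Rora, a nuclear receptor of thalamic and Purkinje neurons, measured 300.4 CPM, 486 CPM and 124 CPM in the same order and 64.9 CPM in WT 9083373, against 57.4 to 78.6 CPM in the low group. Synpo2, an actin-binding protein gene, had 92.1 CPM, 154 CPM and 32.1 CPM against 13.3 CPM in WT 9083373 and 12.6 to 24.3 CPM in the low group. Lef1, the partner of Tcf7l2 in the TCF/LEF family, had 27.7 CPM, 50.1 CPM and 12.0 CPM against 5.95 CPM in WT 9083373 and 2.84 to 8.89 CPM in the low group. For these 4 markers the library WT 9083373 was within the low range, and the other 3 high libraries were above it.

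WT 9083373 exceeded every low library for 8 of the 18 relay markers, as given above. Among the markers high in it, some were also raised in part of the low group. Zic1, a zinc finger factor of medial thalamus, septum and cerebellum, measured 177 CPM in WT 9083373, 162 CPM in WT 7267058, 128 CPM in WT 7267059 and 52.5 CPM in SCA3 9082853. Among the low libraries it reached 210 CPM in WT 7267055, 153 CPM in WT 9083372 and 90.1 CPM in WT 9083375, while the other 6 lay between 15.01 and 30.04 CPM. The groups therefore overlapped for Zic1, with the highest value of all in a low library. Calb2, a calcium-binding protein gene, measured 155 CPM in WT 7267058, 151 CPM in WT 9083373, 38.1 CPM in WT 7267059 and 22.0 CPM in SCA3 9082853, and among the low libraries 60.2 CPM in WT 9083372 was the highest. Baiap3, a gene for a vesicle release protein listed among hypothalamic markers, stood at 333 CPM in WT 9083373, 279 CPM in WT 9083372 and 230 CPM in WT 7267055, and at 30.7 to 89.8 CPM in the remaining 10 libraries.

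Prkcd, a protein kinase C gene widely used as a marker of thalamic relay neurons, separated the groups poorly. It measured 861 CPM in WT 7267059, 294 CPM in WT 7267058, 101 CPM in WT 9083373 and only 23.2 CPM in SCA3 9082853. The low libraries WT 7267055 (180 CPM), WT 9083372 (102 CPM) and WT 9083375 (72.4 CPM) exceeded SCA3 9082853, and the other 6 low libraries lay between 15.1 and 19.9 CPM. Summed over the 18 relay markers, the high libraries ranged from 1072 to 4942 CPM and the low ones from 530 to 1240 CPM, with SCA3 9082853 below WT 7267055 and WT 9083372. A single Tcf7l2 limit thus did not separate the striatal libraries by Prkcd, Zic1 or the relay sum, whereas it did for Slc17a6 and Rgs16. Which tissue these transcripts came from was not tested, and the groups are called Tcf7l2-high and Tcf7l2-low.

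**Figure D2:**
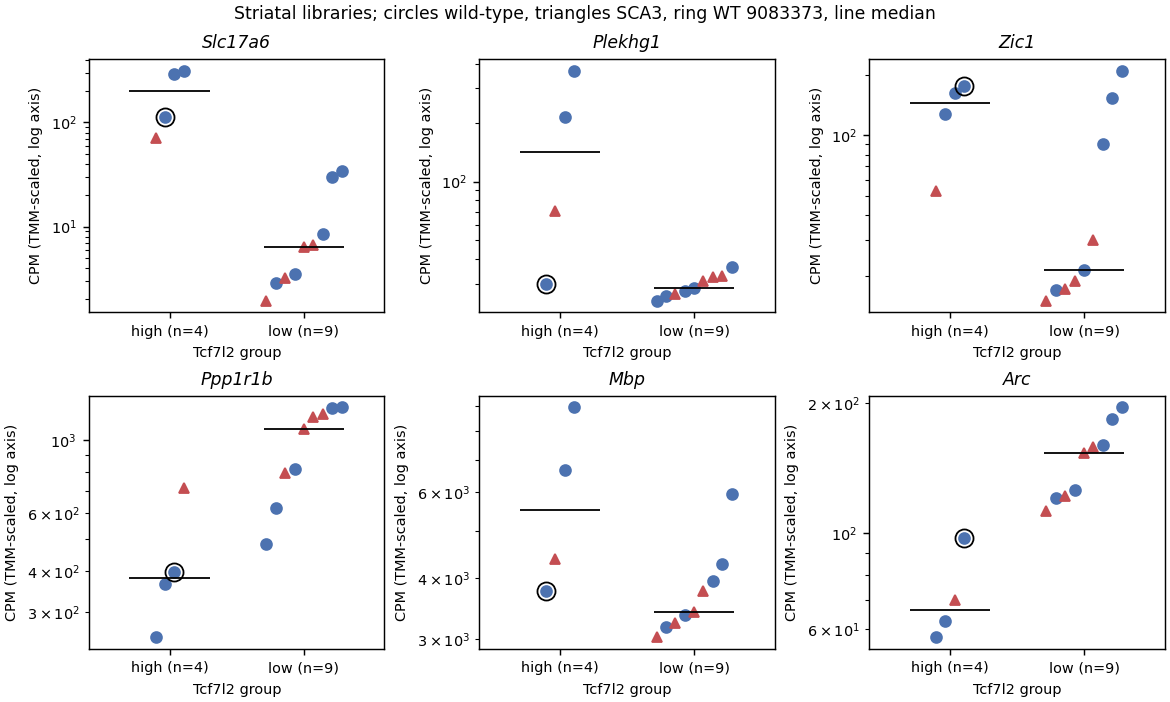
CPM (log axis) of 6 genes in the Tcf7l2-high (n = 4) and Tcf7l2-low (n = 9) striatal libraries; circles are wild-type, triangles SCA3, lines medians, and the ring marks WT 9083373. Slc17a6 and Arc do not overlap between the groups, Plekhg1 places WT 9083373 at 29.8 CPM among the low libraries, and Zic1 places 3 low wild-type libraries at 90.1 to 210 CPM.

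Other genes that stood higher were of several kinds. Ntng1, an axon guidance molecule of thalamic axons, measured 177 CPM, 214 CPM, 54.5 CPM and 43.6 CPM in WT 7267058, WT 7267059, WT 9083373 and SCA3 9082853, against 17.7 to 37.3 CPM in the low group (log2 difference 2.17 ± 0.346, SE). Nr2f2, a nuclear receptor of developing caudal forebrain, had 22.9 to 73.8 CPM against 4.15 to 19.3 CPM, and Cbln1, a synapse organiser abundant in cerebellar granule cells, 14.5 to 44.9 CPM against 2.51 to 8.90 CPM. Kcnc2, a potassium channel subunit of fast-spiking neurons, had 78.6 to 379 CPM against 28.3 to 72.6 CPM. Nefh, the heavy neurofilament chain, had 92.7 to 429 CPM against 29.6 to 76.4 CPM. The remaining genes among the 15 with the largest differences were Epn3, A2m, Patj, Plekhd1, Agt, Flt3, Wnt3 and Gm13629, with log2 differences of 1.89 to 3.34. Gm13629 overlaps Scn9a, Wnt3 overlaps Wnt9b and Nefh overlaps Ap1b1 in the RefSeq annotation, and counting did not use strand, so their reads cannot be fully told apart from those of the neighbour.

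Markers of some other cells around the striatum were higher in the high group, and their part in the result was not tested. Of 4 astrocyte genes of diencephalon, Agt, the angiotensin precursor, stood apart with 44.2 to 98.8 CPM against 3.32 to 40.4 CPM, and Slc6a11, a GABA transporter, had 240 to 606 CPM against 99.6 to 340 CPM. Pvalb and Spp1, which mark the reticular nucleus of the thalamus, had 15.3 to 212 CPM against 7.98 to 37.6 CPM and 9.97 to 75.9 CPM against 3.77 to 15.4 CPM. Ecel1, the third of that list, had a log2 difference of 0.09. For Pvalb and Spp1 WT 9083373 was the high library inside the low range. The list of 12 choroid plexus genes had 4 measured members, among which Ttr, the carrier of thyroxine, ranged from 36.9 to 334 CPM against 4.13 to 116 CPM. The low value of 116 CPM belonged to SCA3 9083515. Of the genes of these 3 lists, Agt alone stood apart. Habenula genes had 1 higher and 1 lower of 2 measured members (median -0.343), with sums of 21.9 to 41.1 CPM against 22.1 to 59.2 CPM. Hippocampal neuron genes had 2 higher and 2 lower of 4 (median -0.334), with Mpped1 standing apart below.

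Mature oligodendrocyte genes were higher in the high group for 19 of 19 members, with a median log2 difference of 0.61 and overlap between the groups for each. Mbp, a major myelin protein gene, measured 6665 CPM in WT 7267058, 8966 CPM in WT 7267059, 3762 CPM in WT 9083373 and 4377 CPM in SCA3 9082853, and 3025 to 5953 CPM in the low group. WT 7267059 exceeded every low library for all 19 genes and WT 7267058 for 15, whereas WT 9083373 did so for 0 and SCA3 9082853 for 5, beside 17.7% over all genes in that library. Within the number series of WT 9083373, the only high library there, the median was -0.144, and within that of WT 7267058 it was 1.03. Astrocyte genes were higher for 9 of 12 members (median 0.23), and Gfap, their intermediate filament, stood apart with 166 to 736 CPM against 85.9 to 161 CPM. Aqp4, their water channel, lay above without overlap at 125 to 257 CPM against 91.3 to 119 CPM. Oligodendrocyte precursor genes had a median of 0.002 over 6 members, endothelial genes 0.014 over 10 and microglial genes 0.145 over 12.

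Striatal genes were lower in the high group. All 24 measured of 26 striatal projection neuron markers had a negative log2 difference, with a median of -0.92 and a range of -1.21 to -0.52, and 0 of them stood apart because the groups overlapped. Ppp1r1b, which encodes DARPP-32, a phosphatase inhibitor downstream of dopamine, measured 367 CPM in WT 7267058, 252 CPM in WT 7267059, 397 CPM in WT 9083373 and 714 CPM in SCA3 9082853. In the low group it ranged from 484 to 1256 CPM with the lowest values in WT 7267055 (484 CPM) and WT 9083375 (623 CPM). Forebrain and striatal patterning factors were lower for 7 of 8 measured members (median -0.59), among them Foxp1 at 108 to 323 CPM against 223 to 434 CPM, and striatal interneuron genes for 5 of 5 (median -0.39). Drd2, the dopamine D2 receptor, had 49.2 to 124 CPM against 107 to 233 CPM, and Drd1, the D1 receptor, 68.8 to 219 CPM against 175 to 342 CPM.

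WT 7267058 and WT 7267059 lay below every low library for all 24 projection neuron markers and WT 9083373 for 23, whereas SCA3 9082853 did so for 0. Over all genes, the share below every low library was 24.3% in WT 7267058, 28.3% in WT 7267059, 17.4% in WT 9083373 and 15% in SCA3 9082853. The sum over the list was 5305 to 7942 CPM in the 3 wild-type high libraries and 13200 CPM in SCA3 9082853. In the low group it ran from 10690 CPM in WT 7267055 to 20390 CPM in WT 9082857. The low libraries WT 7267055, WT 9083375 and WT 9083372 had the smallest sums, at 10690, 11270 and 12530 CPM, and these 3 also had the largest Zic1 and Prkcd values of the low group. WT 9083375 and SCA3 9083514 (13500 CPM) had Slc17a7, the cortical vesicular glutamate transporter, at 598 and 617 CPM, against 3.73 to 208 CPM in the other 11 libraries. Cortical markers thus differed within the low group, and Neurod6, a cortical factor, reached 49.0 and 40.8 CPM in the same 2 libraries against 0.248 to 16.2 CPM elsewhere.

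Immediate early genes, which neurons switch on within minutes of activity, were lower in the high group for 9 of 10 measured members, with a median log2 difference of -1.02, which was -0.59 within the number series of WT 9083373 and -1.64 with the Tcf7l2 limit of 40 CPM. Arc, a synaptic plasticity gene, stood apart with 57.4 to 97.6 CPM against 113 to 196 CPM (log2 difference -1.07 ± 0.174, SE). Egr1 and Junb, transcription factor genes of this class, overlapped at 87.9 to 320 CPM against 258 to 542 CPM and at 10.1 to 41.9 CPM against 28.5 to 84.0 CPM. Both were lowest in WT 7267059 and WT 7267058. Summed over the immediate early list, WT 7267059 held 230.1 CPM and WT 7267058 282 CPM, whereas WT 9083373 with 605 CPM and SCA3 9082853 with 599 CPM lay within the low range of 580 to 1226 CPM. The projection neuron sum, in contrast, was 5305 CPM in WT 7267059, 7286 CPM in WT 9083373 and 7942 CPM in WT 7267058, each below every low library, and its part in the immediate early values was not tested. The other genes among the 10 that stood furthest below were Mas1, Robo3, Vwa7, Igfbp6, Ptprv, Rasgef1c, Itpka, Mpped1 and Cd163, with log2 differences of -1.06 to -1.44. Robo3, a receptor for axon crossing, measured 4.41 to 8.41 CPM against 9.08 to 27.6 CPM, and Itpka, a kinase of dendritic spines, 31.1 to 84.2 CPM against 92.2 to 151 CPM.

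**Figure D3:**
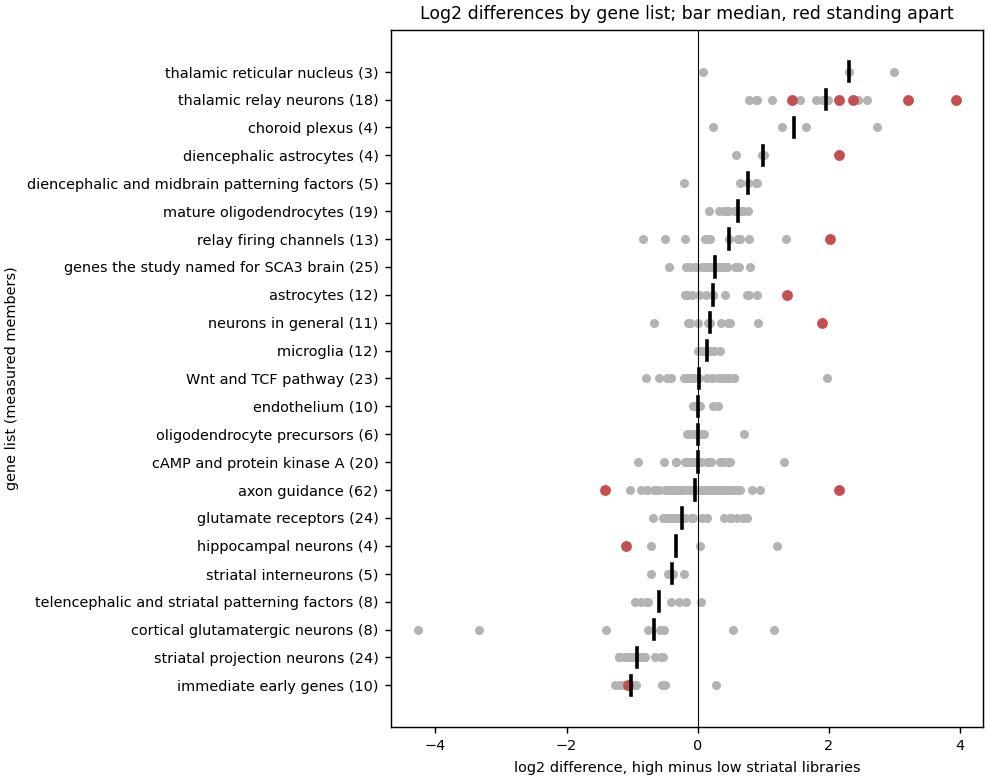
Log2 difference, high minus low striatal libraries, of each measured gene (points) in the lists with 3 or more measured members (number in brackets); bars are list medians and red points are genes standing apart. Thalamic relay genes have a median of 1.96 and striatal projection neuron genes one of -0.92, and the medians of the microglial, endothelial and oligodendrocyte precursor lists lie between 0.002 and 0.145.

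The pathway lists differed in direction. In the Wnt and TCF list 12 of 23 measured genes were higher and the median was 0.015. Ctnnb1, which encodes beta-catenin, was the 1 gene of this list that lay above without overlap, beside 2.88% of all genes. It measured 548 to 661 CPM against 472 to 543 CPM, a log2 difference of 0.23 ± 0.078 (SE). Axin2, a feedback target of the pathway, overlapped at 22.2 to 38.9 CPM against 25.1 to 38.1 CPM. Of 13 channels linked to relay firing, 10 were higher (median 0.48). Cacna1g, a T-type calcium channel, had 56.5 to 213 CPM against 27.2 to 128 CPM, and Cacna1h, another of this type, 93.5 to 161 CPM against 143 to 278 CPM. Glutamate receptors were lower for 16 of 24, with a median of -0.24, and axon guidance genes split into 28 higher and 34 lower. Genes of cAMP and protein kinase A split into 10 higher and 10 lower (median -0.001). Their summed CPM was 4308 to 4558 in the high group and 4684 to 5043 in the low group. That of the glutamate receptors was 2871 to 3716 against 3921 to 4572.

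The same mice were also compared in the other regions, which the rule did not use. With 3 or 4 libraries from the high mice per region these tests can miss a difference, and they cannot show one confined to striatum. Whether the grouping followed the mouse or the dissection was therefore not tested. The mice of the high striatal libraries gave 4 brainstem, 3 cortex and 3 cerebellum libraries, and the other mice 9 in each region. The quasi-likelihood test of edgeR called 0 genes in brainstem, 0 in cortex and 0 in cerebellum at a false discovery rate (FDR) of 0.05, a background of 0%, with 158, 913 and 100 genes at an unadjusted p under 0.05. The smallest FDR was 1, 0.67 and 1, respectively, and DESeq2 and the likelihood ratio test of edgeR also called 0 in each region. In cortex, 46 genes were called without WT 9083373. Of the 59 genes that stood higher in striatum, 27 were higher in brainstem, 14 in cortex and 26 in cerebellum, with median log2 differences of -0.013, -0.222 and -0.004, beside 0.006, 0.004 and -0.002 over all genes. Slc17a6 in brainstem measured 308 to 408 CPM in the mice of the high group and 252 to 427 CPM in the others.

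**Figure D4:**
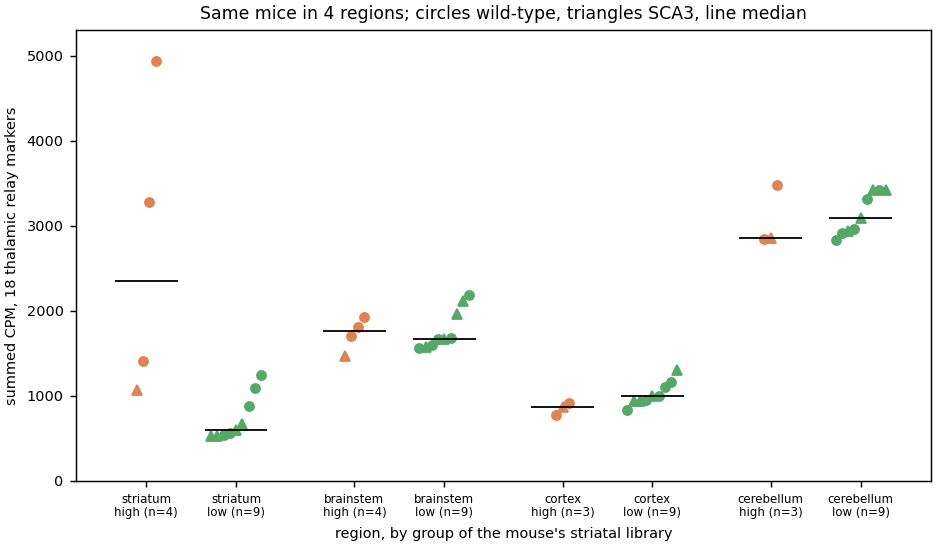
Summed CPM of the 18 measured thalamic relay markers in each library of 4 regions, split by the group of the mouse's striatal library; circles are wild-type, triangles SCA3 and lines medians. The striatal sums reach 4942 CPM in the high group against at most 1240 CPM in the low group, with SCA3 9082853 at 1072 CPM inside the low range, and the groups also overlap in brainstem, cortex and cerebellum.

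Since 3 of 8 wild-type but 1 of 5 SCA3 striatal libraries were high, the genotype effect in striatum was fitted with all libraries and again without the 4 high ones. With 8 wild-type and 5 SCA3 libraries the likelihood ratio test of edgeR called 933 genes at an FDR under 0.05, 7.54% of all genes, with 256 higher (2.07%) and 677 lower (5.47%) in SCA3. With 5 wild-type and 4 SCA3 libraries it called 123 genes, 0.994%, with 19 higher (0.154%) and 104 lower (0.841%). Both sets shared 121 genes, which are 13% of the first set and 98.4% of the second, each in the same direction. The median size of the log2 change over all genes was 0.109 with all libraries and 0.081 without the high ones, and the median SE was 0.095 and 0.106.

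These counts depend on the fit and on single libraries. Both fits draw their estimate of the spread from the other regions as well. They also treat libraries of the same mouse as separate samples. With mouse as a block in limma-voom 713 and 27 genes were called, and with the quasi-likelihood test of edgeR 857 and 53. With the striatal libraries alone the counts were 89 and 76, so the drop was smaller there. When the high libraries were kept and given a term of their own, 563 genes were called. Leaving out 1 library gave 337 (SCA3 7267056) to 1848 (WT 9082857) genes for the first count and 31 (SCA3 9083515) to 327 (WT 9082857) for the second. The second set rests on 4 fewer libraries, and the part of that in the lower count was not tested.

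Of the 59 genes that stood higher in the high group, 25 were called lower in SCA3 with all libraries (background 5.47% called lower) and 2 without the high libraries (background 0.841%). Their median log2 genotype change was -0.837 with all libraries and -0.303 without, beside -0.003 over all genes in both. The 59 were chosen for high values in 3 wild-type libraries and 1 SCA3 library, so lower values in SCA3 with these libraries, and smaller ones without them, follow in part from the choice, and nothing is read from these counts. Of the 14 that stood lower, 0 were called in either fit.

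Of the 18 relay markers 14 were called lower in SCA3 striatum with all libraries (5.47% of all genes) and 3, namely Prkcd, Zic1 and Zic4, without the high ones (0.841%). Relay markers were higher in the high libraries, of which 3 are wild-type, and the second fit has 4 fewer libraries. The part of either in these calls and their loss was not tested. Rgs16 had a log2 change of -2.22 ± 0.537 (SE, edgeR FDR 0.0078) with all libraries and -0.23 ± 0.387 (SE, edgeR FDR 0.93) without. Ntng1 had -1.41 ± 0.382 (SE, edgeR FDR 0.013) and -0.16 ± 0.267 (SE, edgeR FDR 0.93). Prkcd had -3.47 ± 0.503 (SE, edgeR FDR 4.2e-06) and -2.16 ± 0.485 (SE, edgeR FDR 0.0099). Rgs16 and Ntng1 are among the 59 genes, so the smaller change without the high libraries is part of how they were chosen. The groups overlapped for Prkcd, and among the low libraries it was highest in WT 7267055, WT 9083372 and WT 9083375, as given above.

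Zic1, Zic2, Zic4 and Zic5 were called lower in SCA3 in both fits, and without the high libraries their log2 changes were -2.28, -2.31, -2.79 and -1.97 with edgeR FDR values of 0.039, 0.0072, 0.0072 and 0.014. As given above, Zic1 was high in 3 of the 5 low wild-type libraries, and in 0 of the 4 low SCA3 libraries did it exceed 30.04 CPM. With WT 7267055 and WT 9083372 also left out, the changes were -1.08, -1.10, -1.31 and -0.90, each with an edgeR FDR of 1. These 2 libraries were chosen after their high Zic1 values were seen, so a smaller change follows from the choice and nothing is read from it.

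The genes with the smallest FDR in either fit had changes of similar size in both. They were chosen by these fits, which share 9 striatal libraries, so this follows in part from the choice. Tmc3, a transmembrane channel-like gene, was higher in SCA3 by 1.47 ± 0.131 (log2, SE) with all libraries and by 1.53 ± 0.156 without the high ones, with edgeR FDR values of 3e-26 and 1e-18. It measured 5.16 CPM ± 0.481 (SD, n = 5) in low wild-type and 14.9 CPM ± 1.11 (SD, n = 4) in low SCA3 libraries, and 15.2 CPM in the high library SCA3 9082853. Car2, a carbonic anhydrase of oligodendrocytes, had -1.26 ± 0.134 and -1.15 ± 0.131, and Il33, an alarmin cytokine of glia, -1.20 ± 0.165 and -1.07 ± 0.161. Zfp488, an oligodendrocyte transcription factor, had 1.29 ± 0.176 and 1.40 ± 0.186. Chdh, choline dehydrogenase, and Prob1 also rose in both fits, by 0.85 and 0.87 and by 0.68 and 0.81.

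Of 25 genes that the study singled out from these libraries, 23 were called with all striatal libraries and 20 without the high ones. That list was chosen on these samples and is not independent evidence. Over all genes 7.54% were called with all libraries and 0.994% without the high ones, so that 13% of the calls were kept, and the other lists are to be read beside that share. Relay firing channels went from 4 called lower to 0 of 13, astrocyte genes from 5 to 0 of 12, mature oligodendrocyte genes from 8 to 3 of 19, and axon guidance genes from 15 called in either direction to 2 of 62. Some changes whose call was lost differed by less than 1 SE between the fits. Aspa, an enzyme gene of oligodendrocytes, had log2 changes of -0.73 and -0.66, Gja1, the astrocyte gap junction gene, -0.47 and -0.39, and Nrp1, a semaphorin receptor gene, -0.59 and -0.60. Others moved by more than 1 SE, among them Mobp of the oligodendrocyte list (-0.81 and -0.58), Gjb6 of the astrocyte list (-0.59 and -0.35) and Sema4g of the axon guidance list (-0.94 and -0.66). These genes were named after their values were seen, and the genes on either side were not counted.

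The genes with the smallest FDR among those no longer called were Fam214b, AI118078, Tonsl, Cacna1g and Homer2. Cacna1g measured 149 to 213 CPM in the high wild-type libraries, 31.5 to 128 CPM in the low wild-type ones and 27.2 to 86.3 CPM in the low SCA3 ones. Its log2 change was -1.29 ± 0.253 (SE, edgeR FDR 0.00033) with all libraries and -0.89 ± 0.276 (SE, edgeR FDR 0.093) without the high ones. Homer2, a synaptic scaffold gene, had -1.08 ± 0.219 and -0.92 ± 0.26, and Tonsl, a DNA repair gene, -0.78 ± 0.156 and -0.55 ± 0.161. These 5 genes kept their direction without the high libraries, with FDR values from edgeR of 0.05 to 0.093.

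**Figure D5:**
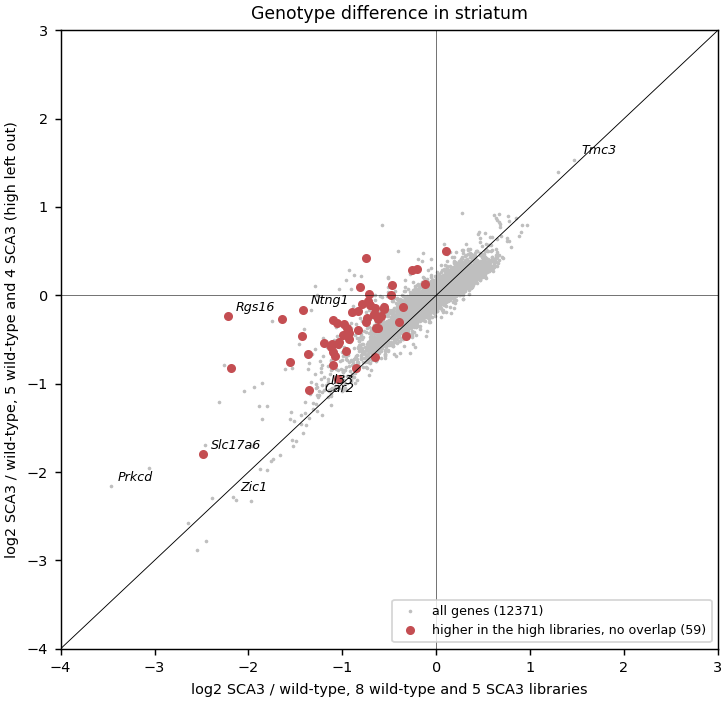
Log2 change, SCA3 against wild-type striatum, for 12371 genes with all 13 libraries (x axis) and without the 4 Tcf7l2-high libraries (y axis); the fits share 9 striatal libraries, the diagonal marks equal values, and red points are the 59 genes that stood higher in the high libraries. The red points were chosen for high values in libraries that the y axis leaves out, of which 3 are wild-type, so the move of their median from -0.837 to -0.303 follows in part from the choice. Tmc3 lies near the diagonal at 1.47 and 1.53.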

How the data were processed

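Poly-A RNA of dissected mouse brain was sequenced with a kit that does not mark strand. Per the paper's methods and the submitters' processing notes, the authors cleaned reads with cutadapt 1.10, aligned them to GRCm38/mm10 with STAR 2.3.0e, keeping unique alignments, counted reads per RefSeq gene without strand with HTSeq 0.6.1, and deposited raw counts of 12372 genes with a mean above 4 CPM. Totals were 36.5 to 71.3 M counts (units of 1e6) per striatal library. Groups came from Tcf7l2 in count / column total; the members, gene lists and tests were chosen with earlier results of these data known.

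From the deposited counts, TMM factors over 53 libraries (edgeR 4.0.16, R 4.3.3) gave the CPM values. The high and low groups were described by a negative binomial fit with genotype as covariate, without a p-value. Other regions were tested with the edgeR quasi-likelihood F test, 1 region at a time with genotype as covariate, and genotype with the likelihood ratio test and 1 coefficient per region and genotype, with Benjamini-Hochberg adjustment. Alternatives used limma 3.58.1 and DESeq2 1.42.0. Scripts were tested on simulated data. Named genes were the 15 largest and 10 smallest differences among those standing apart, list members by role, and 5 genes per genotype criterion by FDR; other genes were chosen after their values were seen. Each striatal library is a separate mouse. No 2 striatal libraries were duplicates (chi-square per gene of at least 19.6).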

Additional observations from a re-analysis of the deposited data

Results flagged for a closer look

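In 106 groups of values (named genes, list sums, RIN and totals, each in the high and the low group), 9 had a highest or lowest library far from the others by Dixon's test, which by chance happens in about 1 in 20 groups. In the high group, WT 9083373 was far above the others for the hypothalamic list, which held Baiap3 as its 1 measured gene (333 CPM against 78.9 CPM for the next), and below them for oligodendrocyte precursor genes (253 CPM), and SCA3 9082853 was highest for Mas1 (4.43 CPM). In the low group, WT 9083372 was highest for Agt (40.4 CPM) and for the axon guidance sum (4083 CPM), WT 9083375 for the habenula sum (59.2 CPM over 2 measured genes) and SCA3 9083515 for the choroid plexus sum (158 CPM). WT 7267055 was lowest for Itpka (92.2 CPM) and WT 9083371 for the glutamate receptor sum (3921 CPM).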

How the results depend on the processing

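The counts of genes standing apart, 59 higher and 14 lower, moved more with the libraries used, the log2 size and a higher Tcf7l2 limit than with scaling, filters, covariates or limma-voom. With fewer libraries in a group the condition of no overlap is easier to meet, so higher counts there are in part built into the measure. They were 109 and 113 with wild-type libraries only, 158 and 137 with a log2 size of 0.5, 205 and 188 with a Tcf7l2 limit of 40 CPM (2 high libraries), 348 and 108 within the number series of WT 7267058, 132 and 94 within the series of WT 9083373, and 180 and 113 without WT 7267055, WT 9083372 and WT 9083373, a choice made after seeing the data. The series of SCA3 9082853, with 1 library a group of different genotype, gave no value. Leaving out 1 library gave 55 to 112 and 5 to 110.

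The median log2 difference of relay markers was 2.66 with the limit of 40 CPM, 0.65 within the series of WT 9083373 and 1.331 to 2.253 when 1 library was left out. That of immediate early genes was -1.64 with that limit, -0.59 within the series of WT 9083373 and -1.24 to -0.79 with 1 library left out. Oligodendrocyte genes had 1.03 within the series of WT 7267058 and -0.144 within the series of WT 9083373, and the 5 measured diencephalic and midbrain patterning factors, mostly Zic genes, with a median of 0.77 over all 13 libraries, reversed to -0.81 within the series of WT 7267058.

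Genotype counts with all libraries (933) were 89 with striatal libraries alone, 403 without these 3 libraries and 337 to 1848 with 1 left out. Without the high libraries (123) they were 53 by quasi-likelihood, 76 with striatal libraries alone, 20 without WT 7267055 and WT 9083372 as well, 563 with the high libraries kept under a term, and 31 to 327 with 1 left out. With mouse as a replicate block in limma-voom they were 713 and 27. In cortex 0 to 46 genes were called with 1 library left out, and in the other regions 0. No paired analysis was possible for high against low because each mouse gave 1 striatal library.

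The property differences, none of which passed its test, turned sign with wild-type libraries only for total count (0.601 M), age (-0.4 weeks) and bodyweight (-4.84 g), and with 1 library left out ranged from -0.444 to 0.156 for RIN, -5.69 to 3.64 M counts, 0 to 0.75 weeks and -0.829 to 2.35 g. The causes of these shifts were not tested.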
